A study of Homo sapiens with 8 samples.

Results

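Receptor tyrosine kinases and the hormone FGF19 were followed through sorafenib-resistant (SR) and wild-type sensitive (WT) liver cancer cells. The set held 10 genes of the 63241 in the deposited expression values, picked by symbol: the ErbB receptors EGFR, ERBB2 and ERBB3, the fibroblast growth factor receptors FGFR1, FGFR2, FGFR3 and FGFR4, the ligand FGF19, and the receptors MET and AXL. HepG2 and Huh7 are established human hepatocellular carcinoma (HCC) cell lines. The SR lines were obtained from each of them under a rising gradient of sorafenib, an oral multikinase inhibitor, and carry the treatment label sorafenib, whereas the WT lines carry the label control. Polyadenylated RNA was read in 8 libraries, with 2 replicates of WT and 2 of SR in either line, all of them labelled as 1 batch. No source used here states whether the replicates came from separate cultures, so every p-value measures the spread between these libraries, which may be technical.

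A receptor tyrosine kinase spans the plasma membrane. Binding of its ligand brings receptor molecules together, and their kinase domains then phosphorylate tyrosines that recruit adaptors such as GRB2 and FRS2 and switch on the RAS-MAPK and PI3K pathways. In liver, FGF19 is a hormone of the gut: bile acids induce it there through the nuclear receptor NR1H4 (FXR), and on hepatocytes it binds FGFR4 together with the coreceptor KLB and represses CYP7A1, the rate-limiting enzyme of bile acid synthesis. EGFR, MET and AXL are well-known routes by which carcinoma cells withstand kinase inhibitors, and sorafenib itself acts on several kinases, among them the receptors for VEGF and PDGF.

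Libraries did not group by the cell line on their labels, and this bears on every value below. Across the 15173 genes tested, Pearson's r of log2(FPKM + 1) between libraries was 0.914 to 0.977 among 5 of them, namely both HepG2 WT libraries, the first SR library of HepG2, and replicate 2 of both Huh7 groups. Replicate 1 of Huh7 WT matched that of Huh7 SR (r = 0.965) but reached only 0.731 to 0.783 against those 5. The second SR library of HepG2 was unlike all others, at 0.775 to 0.846. In HepG2 WT replicate 2, 38276 genes were above 0 FPKM, against 27188 to 29071 in the others, so its values near 0 have no match elsewhere. The defining markers did not all move alike. The summed level of the 8 hepatocyte markers was 634 to 1105 FPKM in both Huh7 WT libraries and Huh7 SR replicate 1 and 4503 to 6568 FPKM in the other 5. ALB (albumin) was at 12 and 42.3 FPKM in Huh7 WT replicate 1 and Huh7 SR replicate 1 and at 604 to 4713 FPKM in the other 6, whereas FGB (fibrinogen beta) was at 380 and 327 FPKM in those 2, at 128 FPKM in HepG2 SR replicate 2 and at 0.386 to 4.51 FPKM in the 5 alike. APOB and HNF4A were in the range of the other libraries in those 2. The summed level of the 4 biliary or progenitor markers was 15.5 to 65.3 FPKM in the 3 libraries that stood apart and 308 to 904 FPKM in the 5 alike. Within that list, KRT7 was at 0 to 4.75 FPKM throughout. SOX9 was at 54.1 FPKM in HepG2 SR replicate 2, inside the 15.6 to 78.4 FPKM of the 5 alike, and at 3.76 to 6.16 FPKM in replicate 1 of both Huh7 groups. Of the 2 fetal liver markers, AFP was at 1100 FPKM in HepG2 SR replicate 2 and at 1.07 to 35.8 FPKM elsewhere. GPC3 was at 301 FPKM in that library, below the 410 to 1068 FPKM of the 5 alike. Of the 5 mesenchymal markers, VIM (vimentin) reached 536 FPKM in HepG2 SR replicate 2 against 7.02 FPKM or less elsewhere, but ACTA2 was at 0.0349 FPKM there against 24.9 to 57.6 FPKM in the 5 alike, and PDGFRB and COL1A1 were at 0.376 and 0.211 FPKM. FPKM is a level per transcript length and per library total, so it can be compared between genes, and fewer cells of a type and less RNA per cell cannot be told apart in it. The part that these differences between libraries have in the results was not tested.

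In level, FGFR4 led the set. Its FPKM was the highest of the 10 genes in 7 libraries, and FGFR1 was the highest in Huh7 WT replicate 2. ERBB3 came second in 6 libraries. By group, FGFR4 averaged 85.2 ± 4.95 FPKM in HepG2 WT, 129 ± 25.3 FPKM in HepG2 SR, 60.8 ± 36.4 FPKM in Huh7 WT and 109 ± 22.0 FPKM in Huh7 SR (SD, n = 2). At the other end, FGFR2 and FGF19 stayed under 1 FPKM in every library except HepG2 SR replicate 2. Because of this, both failed the filter of at least 1 FPKM in at least 2 libraries, and 8 of the 10 genes were tested.

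The sequences before the transcription starts of 4 of these genes are shown because their levels carry the results that follow: EGFR and FGFR2 separate libraries of the same group, FGFR4 was higher in the SR libraries, and AXL was lower. They were read from RefSeq (GRCh38.p14) and run 5′ to 3′ on the gene's strand from 250 bases before the start to 50 bases after it. Capitals mark matches on either strand to the 4 motifs searched. These were the core of the TATA box (letters TATAAA), the CCAAT box, the box rich in G and C known as the GC box (letters GGGCGG), and an AP-1 type motif (letters TGANTCA).
EGFR, chr7:55018767-55019066, plus strand: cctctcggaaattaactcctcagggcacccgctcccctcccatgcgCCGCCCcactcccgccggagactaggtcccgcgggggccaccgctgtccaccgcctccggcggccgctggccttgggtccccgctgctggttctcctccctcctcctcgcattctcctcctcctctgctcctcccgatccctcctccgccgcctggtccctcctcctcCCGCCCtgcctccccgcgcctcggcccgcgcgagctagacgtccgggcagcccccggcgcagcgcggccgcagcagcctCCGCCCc
FGFR4, chr5:177086665-177086964, plus strand: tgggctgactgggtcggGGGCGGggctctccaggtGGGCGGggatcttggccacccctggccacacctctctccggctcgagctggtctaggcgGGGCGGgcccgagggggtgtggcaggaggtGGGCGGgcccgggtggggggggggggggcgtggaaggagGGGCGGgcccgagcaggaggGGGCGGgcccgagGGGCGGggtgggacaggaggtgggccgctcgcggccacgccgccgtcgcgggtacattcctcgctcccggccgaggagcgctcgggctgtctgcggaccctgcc
FGFR2, chr10:121598395-121598694, minus strand: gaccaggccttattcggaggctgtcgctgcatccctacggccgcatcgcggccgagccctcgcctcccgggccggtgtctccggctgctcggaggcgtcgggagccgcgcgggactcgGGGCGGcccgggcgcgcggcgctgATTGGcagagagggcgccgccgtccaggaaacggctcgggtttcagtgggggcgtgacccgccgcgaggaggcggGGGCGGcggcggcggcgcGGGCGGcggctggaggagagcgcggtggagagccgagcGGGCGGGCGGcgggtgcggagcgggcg
AXL, chr19:41218973-41219272, plus strand: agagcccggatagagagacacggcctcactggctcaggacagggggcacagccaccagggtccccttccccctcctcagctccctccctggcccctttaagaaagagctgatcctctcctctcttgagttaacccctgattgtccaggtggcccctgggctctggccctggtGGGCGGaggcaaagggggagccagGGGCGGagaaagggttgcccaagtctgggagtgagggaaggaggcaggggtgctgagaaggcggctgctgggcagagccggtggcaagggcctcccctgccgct
All 4 windows were rich in G and C, at 75.3% for EGFR, 78.7% for FGFR4, 79.3% for FGFR2 and 66.0% for AXL. GC boxes were found 3 times in the EGFR window, 7 times for FGFR4, 5 times for FGFR2, where the last matches overlap, and 2 times for AXL. Among these 4 windows the FGFR2 window held the only CCAAT match, and none held TATAAA or TGANTCA. Other windows of the same genes differed: a second EGFR window (chr7:55109589-55109888) had 42.0% G and C with 2 matches each to TATAAA and TGANTCA, and the 4 further FGFR2 windows had 47.3% to 50.7%. Of all 35116 RefSeq promoter windows of the same length, 45.0% held a GC box, 34.6% a CCAAT, 11.5% a TATAAA and 7.71% a TGANTCA, and these matches describe the letters only. RefSeq windows were matched for 7 of the 10 genes, 14 windows in all.

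Among the ErbB receptors, EGFR varied the most. EGFR binds EGF, TGFA, AREG, EREG and HBEGF and lies on chromosome 7 (55019021 to 55211628, GRCh38). In HepG2 WT it stood at 2.55 FPKM in replicate 1 and 2.66 FPKM in replicate 2, and HepG2 SR gave 0.595 and 22.8 FPKM in the same order, which is kept for all genes below. In Huh7 WT it stood at 25.6 and 1.74 FPKM, and in Huh7 SR at 24.2 and 1.0 FPKM. The high libraries were thus the second of HepG2 SR and the first of either Huh7 group, the same 3 that stood apart across all genes, and the lowest of them was 8.56-fold above the highest of the other 5. The share of all genes that separate these 3 libraries from the other 5 was not computed. EGFR took 21.3% to 25.1% of the summed ErbB FPKM in those 3 libraries and 0.537% to 4.78% in the other 5. By group mean the order was Huh7 WT, Huh7 SR, HepG2 SR and HepG2 WT, with overlapping libraries between each neighbour and the next. On the log2(FPKM + 1) scale used for all differences below, SR minus WT was 0.77 in HepG2 (SE 1.72, adjusted p = 0.978 in limma) and -0.27 in Huh7 (SE 1.72, adjusted p = 1), neither larger than the spread. The HepG2 value turned to -1.18 without HepG2 SR replicate 2 (adjusted p = 1). Within the 5 alike libraries, which mix the labelled lines, EGFR was at 0.595 and 1.0 FPKM in the SR libraries and at 1.74 to 2.66 FPKM in the WT libraries. These values are near the filter of 1 FPKM. The split was made after the data were seen, and the share of all genes that separate in it was not computed. An expression profile term (the sets of libraries alike across all genes) was chosen after the data were seen. It fits HepG2 SR replicate 2 exactly, so HepG2 SR then rests on replicate 1 alone. With it EGFR was at -1.18 in HepG2 and -0.72 over both lines, the same values as without HepG2 SR replicate 2.

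EGFR-AS1, an antisense gene annotated within the EGFR locus on the other strand, went the opposite way across the libraries. It was at 2.47 to 5.86 FPKM in the 5 alike libraries and at 0.0578 to 1.15 FPKM in the 3 others. Whether reads were assigned by strand is not given in the sources used here, so those of EGFR and EGFR-AS1 cannot be told apart with certainty. Of the 14 genes that start within 500 kb of EGFR, 3 were tested, EGFR-AS1, SEC61G and LANCL2. SEC61G, a subunit of the protein translocation channel, was at 180 to 203 FPKM in the 3 libraries that stood apart across all genes and at 80.1 to 131 FPKM in the others. The tested genes whose pattern was most like that of EGFR over the 8 libraries were SLC35A4, SLC12A2 and NAA11, with a root mean square difference of 0.33 to 0.37 between mean-centred log2(FPKM + 1) values.

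ERBB2 and ERBB3 were present in all libraries and spanned far less. ERBB2, the receptor without a known ligand that pairs with the other ErbB receptors, lies on chromosome 17 (39687914 to 39730426). It was at 42.1 and 50.2 FPKM in HepG2 WT, 34.0 and 18.9 FPKM in HepG2 SR, 27.5 and 16.7 FPKM in Huh7 WT, and 21.6 and 28.9 FPKM in Huh7 SR. Both HepG2 WT libraries were above the other 6, whereas the Huh7 groups overlapped. SR minus WT was -0.83 (SE 0.42, adjusted p = 0.956) in HepG2 and 0.21 (SE 0.42, adjusted p = 1) in Huh7, and the difference between the lines, 1.04 (SE 0.60), did not pass the test. GRB7, the adaptor gene 50 kb from the ERBB2 start, was at 42.1 to 67.4 FPKM in both HepG2 WT libraries and HepG2 SR replicate 1 and at 50.5 FPKM in Huh7 SR replicate 2, but at 0.580 FPKM in HepG2 SR replicate 2, and at 6.72 to 13.2 FPKM in the other 3. PGAP3, MIEN1, STARD3 and CDK12 were the other nearest tested genes. PGAP3 and MIEN1 overlap ERBB2 on the opposite strand, and MIEN1 was at 20.5 to 32.5 FPKM in every library.

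ERBB3 binds neuregulins and signals through a partner, since its own kinase is weak. It lies on chromosome 12 (56076799 to 56103505) and was at 43.4 and 66.3 FPKM in HepG2 WT, 76.0 and 48.8 FPKM in HepG2 SR, 59.0 and 18.0 FPKM in Huh7 WT, and 68.2 and 76.6 FPKM in Huh7 SR. Huh7 WT replicate 2 was the lowest of all libraries, and the Huh7 SR libraries lay above the Huh7 WT libraries. SR minus WT was 1.12 (SE 0.58, adjusted p = 1) in Huh7 and 0.18 (SE 0.58, adjusted p = 0.989) in HepG2. ERBB3 made up 49.3% to 72.0% of the summed ErbB FPKM, and ERBB2 made up 19.0% to 47.8%. Genes with a pattern most like that of ERBB3 were KIF20B, ACOX2 and PDK2 (root mean square difference of 0.18 to 0.24).

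The ErbB ligands were uneven between libraries. Of 10 genes in the list (9 ligands and the receptor ERBB4), 4 ligands were tested, and EGF, BTC, NRG2 and ERBB4 were under 1 FPKM in every library. TGFA was at 9.98 to 14.0 FPKM in the 5 alike libraries and at 0 to 0.0256 FPKM in the 3 libraries that stood apart across all genes. AREG (amphiregulin) was at 16.8 and 23.9 FPKM in HepG2 WT, 12.5 and 1.52 FPKM in HepG2 SR, 142 and 93.9 FPKM in Huh7 WT, and 42.2 and 20.9 FPKM in Huh7 SR, lower in both SR libraries than in both WT libraries of each line. In Huh7 it passed the thresholds as lower, at -1.92 (SE 0.79, adjusted p = 1), and in HepG2 the value was -1.85 (SE 0.79, adjusted p = 0.956), short of the unadjusted threshold. The Huh7 call was lost on leaving out any of 5 libraries, and with a pseudocount of 0.1, no filter or TPM rescaling. Over both lines AREG was lower, at -1.89 (SE 0.56, adjusted p = 0.998) and kept that call in each of the 8 fits that left out a library. HBEGF, at 1.1 to 1.89 FPKM in HepG2 SR against 3.11 to 5.84 FPKM in HepG2 WT, passed the thresholds over both lines at -1.0 (SE 0.39, adjusted p = 0.998), a call lost on leaving out any of 6 libraries. EREG was at 145 FPKM in Huh7 WT replicate 1 and 19.7 FPKM in Huh7 SR replicate 1 and under 1 FPKM elsewhere. AREG was picked by the rule for named genes, and TGFA, HBEGF and EREG were picked after their values were seen.

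**Figure D1:**
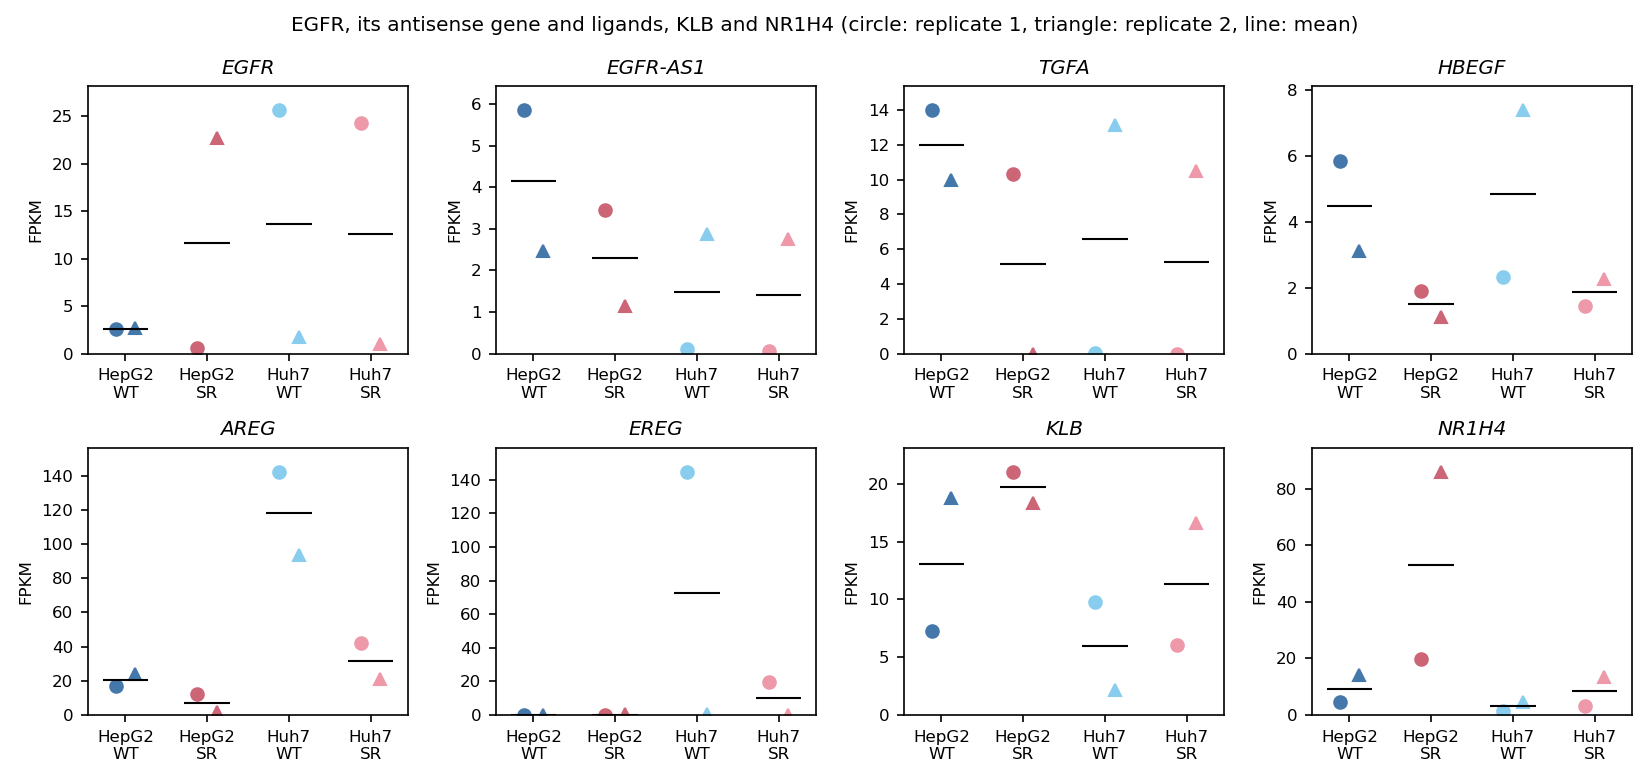
FPKM (y axis, linear, from 0) of EGFR, its antisense gene, 4 of its ligands, the FGFR4 coreceptor KLB and the bile acid receptor NR1H4 by group (x axis), with a circle for replicate 1, a triangle for replicate 2 and a line at the mean of both. TGFA is at 0.0256 FPKM or less and EGFR at 22.8 FPKM or more in the 3 libraries that stood apart across all genes, and AREG is lower in SR than in WT within each cell line.

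Of the FGF receptors, FGFR4 was higher in SR libraries than in WT libraries of both lines, short of the thresholds. FGFR4 is the main FGF receptor of hepatocytes and lies on chromosome 5 (177086886 to 177098144). HepG2 WT gave 81.7 and 88.7 FPKM, against 147 and 111 FPKM in HepG2 SR. In Huh7 WT it was at 86.5 and 35.0 FPKM, and in Huh7 SR at 125 and 93.8 FPKM. Every SR library was above every WT library, which 1.52% of the genes tested also showed, and 3.22% were higher without overlap within each line. SR minus WT was 0.58 (SE 0.47, adjusted p = 0.956) in HepG2, 0.96 (SE 0.47, adjusted p = 1) in Huh7 and 0.77 (SE 0.33, adjusted p = 0.998) over both lines, so the thresholds were not passed. Without Huh7 WT replicate 1 the value over both lines was 1.09 and passed (adjusted p = 0.732), and without Huh7 WT replicate 2, the lowest library, it was 0.45. With the replicate number as a block, 0.77 also passed (adjusted p = 0.998). PRDX1, SOD1 and TUBB had the patterns most like that of FGFR4 (root mean square difference of 0.20 to 0.23).

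FGFR3 and FGFR1, which bind several FGFs, showed no such order. FGFR3 (chromosome 4, 1793293 to 1808872) was at 33.9 and 63.3 FPKM in HepG2 WT, 51.9 and 62.1 FPKM in HepG2 SR, 35.0 and 20.3 FPKM in Huh7 WT, and 35.6 and 56.9 FPKM in Huh7 SR. The Huh7 SR libraries lay above the Huh7 WT libraries (0.73, SE 0.46, adjusted p = 1), and the HepG2 groups overlapped. FGFR1 (chromosome 8, 38400215 to 38468834) was at 26.8 and 29.5 FPKM in HepG2 WT, 34.9 and 22.0 FPKM in HepG2 SR, 11.3 and 54.3 FPKM in Huh7 WT, and 6.88 and 28.6 FPKM in Huh7 SR. All 5 alike libraries (26.8 to 54.3 FPKM) were above the other 3 (6.88 to 22.0 FPKM), by 1.22-fold at the nearest, the reverse of the order for EGFR. These sets of libraries came from the values of all genes, and the share of all genes that separate them was not computed. STAT3, PLCG1 and IGF1R of the gene lists separated them in the same direction as FGFR1. SR minus WT of FGFR1 was -0.02 (SE 0.85) in HepG2 and -0.77 (SE 0.85) in Huh7, with an adjusted p of 1 in both. Between same-numbered Huh7 libraries, whose deviations ran together across all genes (r = 0.796), it was -0.65 and -0.90. With the expression profile as a term, FGFR1 passed the thresholds in Huh7 (adjusted p = 0.572 in limma). ETV5, a transcription factor of the ETS family known to respond to FGF signalling, was the gene most like FGFR1, with a root mean square difference of 0.11 and a range of 6.22 to 40.7 FPKM, followed by PDLIM3 and MT-TG.

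FGFR2 and FGF19 were seen in 1 library. FGFR2 (chromosome 10, 121478334 to 121598458) was at 8.84 FPKM in HepG2 SR replicate 2 and at 0 to 0.328 FPKM in the other 7, 27.0-fold below it at the highest, HepG2 WT replicate 2, the library with the most genes above 0. FGF19 (chromosome 11, 69698232 to 69704642) was at 10.2 FPKM in the same library, 18.2-fold above the next, Huh7 WT replicate 1 at 0.562 FPKM, and was at 0.0249 FPKM in the lowest. HepG2 SR replicate 1 was at 0.113 FPKM for FGFR2 and 0.0972 FPKM for FGF19, so the replicates of that group did not share the level. CCND1, the cyclin D1 gene 63.6 kb from FGF19, was at its lowest in HepG2 SR replicate 2 (31.4 FPKM against 52.0 to 197 FPKM), and of the 6 tested genes that start within 500 kb of FGF19 (of 25), none had its highest level there. The other nearest of these were LTO1, LINC01488, LINC02747 and MYEOV. RASL11A was among the 3 genes most like both FGFR2 (with NAPRT and OXCT1) and FGF19 (with RFPL4B and CPLX1), all of which peak in HepG2 SR replicate 2. PDGFRA, a sorafenib target picked after its values were seen, was at 21.7 FPKM in that library and at 0.0720 FPKM or less elsewhere.

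The partners of FGF19 were measured in most libraries. KLB was at 7.29 and 18.8 FPKM in HepG2 WT, 21.0 and 18.4 FPKM in HepG2 SR, 9.79 and 2.14 FPKM in Huh7 WT, and 6.03 and 16.6 FPKM in Huh7 SR. SR minus WT of KLB was 0.69 (SE 0.75, adjusted p = 0.956) in HepG2 and 0.93 (SE 0.75, adjusted p = 1) in Huh7. Of 13 FGF ligands and coreceptors, 4 were tested, 0 passed in either line, and 8 were under 1 FPKM in every library. Of the 10 genes of the bile acid axis, 5 were tested and 0 passed in either line. NR1H4 passed as higher over both lines, at 1.66 (SE 0.67, adjusted p = 0.998), with 4.48 and 14.0 FPKM in HepG2 WT, 19.8 and 85.9 FPKM in HepG2 SR, 1.42 and 4.67 FPKM in Huh7 WT, and 3.33 and 13.5 FPKM in Huh7 SR. The call was lost on leaving out any of 4 libraries, among them HepG2 SR replicate 2 (1.15), and NR1H4 was picked after its values were seen. CYP7A1 was at 1.71 FPKM in HepG2 WT replicate 1 and at 0.0815 FPKM or less in the others.

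MET, the receptor of hepatocyte growth factor, was highest in Huh7 WT. It lies on chromosome 7 (116672390 to 116798386) and was at 23.3 and 20.5 FPKM in HepG2 WT, 17.3 and 16.3 FPKM in HepG2 SR, 51.9 and 27.2 FPKM in Huh7 WT, and 30.0 and 15.8 FPKM in Huh7 SR. The HepG2 SR libraries lay below the HepG2 WT libraries, and the Huh7 groups overlapped. SR minus WT was -0.36 (SE 0.45, adjusted p = 0.956) in HepG2 and -0.76 (SE 0.45, adjusted p = 1) in Huh7. Between same-numbered libraries, which were not taken as pairs, MET was lower in SR in all 4 cases. The values were -0.41 and -0.32 in HepG2, where such libraries hardly deviated together across all genes (r = 0.125), and -0.77 and -0.75 in Huh7. AXL was also lower and FGFR4 higher in all 4 cases, and the share of all genes with 1 sign throughout was not computed. With the expression profile as a term MET passed the thresholds in Huh7 (adjusted p = 0.572 in limma). Its value over both lines was then -0.54, where HepG2 SR rests on replicate 1 alone. HGF was under 1 FPKM in every library. CAV1 and CAV2, the caveolin genes 147.6 and 385.0 kb away, were at 4.31 to 11.1 FPKM and 7.16 to 16.9 FPKM in the 3 libraries that stood apart across all genes and at 0.192 FPKM or less and 1.16 FPKM or less in the other 5. MET itself did not separate those libraries. CAPZA2, ST7 and ST7-AS1 were the other nearest of 6 tested genes (of 28) within 500 kb.

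AXL, the receptor of GAS6 and a gene often raised in mesenchymal-like carcinoma cells, was the only one of the 8 tested to pass the thresholds in a comparison of SR with WT in the model described for all 8 libraries. It lies on chromosome 19 (41219203 to 41261766) and fell from 10.4 and 4.26 FPKM in HepG2 WT to 2.16 and 0.194 FPKM in HepG2 SR. In Huh7 WT it was at 8.72 and 6.93 FPKM, and in Huh7 SR at 4.91 and 2.98 FPKM. Both SR libraries were below both WT libraries within each line, which 4.28% of the genes tested showed in the lower direction, while the groups overlapped across lines, since HepG2 WT replicate 2 was under Huh7 SR replicate 1. SR minus WT passed the thresholds at -2.0 (SE 0.61, adjusted p = 0.956) in HepG2 and at -1.43 (SE 0.43, adjusted p = 0.998) over both lines, and was -0.86 (SE 0.61, adjusted p = 1) in Huh7. The difference between the lines, 1.14 (SE 0.86), did not pass. The call in HepG2 was lost without HepG2 WT replicate 1 (-1.44) and without HepG2 SR replicate 2 (-1.29), and the call over both lines was lost without HepG2 WT replicate 1 (-1.15). RHOF, SOCS2 and S100A11 were most like AXL (root mean square difference of 0.22 to 0.27). GAS6 was at 0.497 to 1.85 FPKM in the 5 alike libraries and at 0.0558 FPKM or less in the other 3. MST1R, a receptor related to MET, was at 1.37 to 3.34 FPKM in the same 5 and at 0.201 FPKM or less in the other 3.

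Counted together, 1 of the 8 genes tested passed the thresholds (unadjusted p under 0.05, and a log2 difference from 0.5 upwards or below -0.5) in HepG2 SR versus HepG2 WT, beside 2.14% of all genes tested. In Huh7 SR versus Huh7 WT, limma called 0 of the 8 (also 0 at the unadjusted p alone), beside 1.87% of all genes. Over both lines 1 of the 8 was called, beside 3.93% of all genes. The difference between the lines called 0 of the 8, beside 0.606% of all genes, and Huh7 versus HepG2 called 0 of the 8, beside 4.9% of all genes. At an adjusted p under 0.05, limma called 0 of the 15173 genes in any of the 5 comparisons, against 325, 283, 92, 597 and 744 at an unadjusted p under 0.05. None of these counts exceeded a share of 0.05 of the genes tested, which is what no difference in any gene would give on average. Without overlap between groups, ERBB2, MET and AXL were lower in HepG2 SR (20.1% of all genes were lower in this way) and FGFR4 was higher (18.1%). In Huh7 SR, ERBB3, FGFR3 and FGFR4 were higher (9.06% of all genes) and AXL was lower (12.9%). Over both lines, 0 of the 8 were lower without overlap (2.17% of all genes), and between Huh7 and HepG2 0 were higher (2.12%) and 0 lower (1.69%).

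Downstream of the receptors, levels were steadier. All 20 adaptors and effectors were tested, with summed levels of 427 to 539 FPKM across libraries and a median SR minus WT of -0.07 in HepG2 and -0.12 in Huh7, beside -0.03 and -0.05 over all genes. Of 15 negative regulators, CBL, a ubiquitin ligase that marks activated receptors for degradation, passed as lower in HepG2 at -0.92 (SE 0.37, adjusted p = 0.956). Over both lines CBL and PTPN1, a phosphatase picked after its values were seen, passed as lower at -0.86 (SE 0.26) and -0.54 (SE 0.22), with an adjusted p of 0.998 for both. CBL was at 11.7 and 9.36 FPKM in HepG2 WT, 6.61 and 3.78 FPKM in HepG2 SR, 13.7 and 12.5 FPKM in Huh7 WT, and 8.04 and 6.25 FPKM in Huh7 SR. The HepG2 call of CBL was lost on leaving out any of 7 libraries, and that over both lines without HepG2 WT replicate 1 (-0.79), whereas that of PTPN1 was lost on leaving out any of 7 libraries. Among 12 genes of the HGF and GAS6 systems (11 tested) and 16 other receptors (6 tested), 0 passed in either line, and the sorafenib targets KDR, FLT1, FLT4, KIT, RET and FLT3 were under 1 FPKM in every library. Of 8 hepatocyte markers, TF (transferrin) and HNF4A passed as higher in Huh7 SR at 2.13 and 0.96 (limma, adjusted p = 1), beside 1.87% of all genes called in that comparison. HNF4A was close to the threshold (unadjusted p = 0.0498 in limma). ERBB3, FGFR3 and FGFR4 were higher without overlap in the same line, and a link to these markers was not tested.

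Between the cell lines as labelled, none of the 8 genes tested passed. Huh7 minus HepG2 ranged from -0.55 for FGFR3 to 0.75 for AXL (SE 0.33 and 0.43). AREG was higher in Huh7 by 2.43 (SE 0.56, adjusted p = 0.813) and kept the call in each of the 8 fits that left out a library. SPRY1, FGFRL1, TYRO3, EPHB4 and NR1H4 were lower at -1.07, -0.84, -1.05, -0.97 and -1.86, with adjusted p = 0.813 in limma for each, and SPRY1 alone of these kept its call in each such fit. They were picked after their values were seen. In the same comparison 5 of the 8 hepatocyte markers passed as lower (ALB, APOA1, TTR, SERPINA1 and TF), beside 4.9% of all genes. The list median was -1.77 beside 0.03 over all genes. Huh7 SR replicate 2 was at 2891, 1240, 33.1, 652 and 211 FPKM for these 5, not below the range of the HepG2 libraries. AFP of the 2 fetal liver markers also passed as lower. It was at 1100 FPKM in HepG2 SR replicate 2 and at 18.2 to 35.8 FPKM in the other HepG2 libraries. Huh7 SR replicate 2 was at 21.8 FPKM, and the other Huh7 libraries were at 1.07 to 2.55 FPKM. The part of these markers in the result was not tested. With the expression profile as a term, which leaves HepG2 SR resting on replicate 1 alone, FGFRL1, TYRO3, EPHB4 and NR1H4 no longer passed.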

How the data were processed

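Polyadenylated RNA was sequenced from 8 libraries. The authors deposited FPKM values, 1 file per library without pooling, already scaled for depth and transcript length. Per the labels' processing notes, fastp 0.20.0 and GRCh38 were used, whereas the aligner, quantifier and annotation are not given in the sources used here. FPKM carry no counts, and spacing of low values gave no stable read total, so depth is unknown and no counting interval is given.

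Values were tested as log2(FPKM + 1), a scale that understates changes of low genes, with limma 3.58.1 in R 4.3.3 (eBayes with trend). A single model held a mean for each of the 4 groups and left 4 residual degrees of freedom. It covered 15173 genes at 1 FPKM or more in at least 2 libraries. A call took an unadjusted p under 0.05 and a log2 difference from 0.5 upwards or below -0.5, the study's thresholds, and adjusted p-values are Benjamini-Hochberg over all genes tested. The study's own test needs counts and was not run. Alternatives were a pseudocount of 0.1, other filters, TPM rescaling, quantile normalization, a replicate block, no trend, separate fits, a cutoff of 1, adjusted p and leaving out each library. An expression profile term (the sets of libraries with r above 0.9) was chosen after the data were seen. It fits HepG2 SR replicate 2 exactly, since that library forms a set of its own. Scripts were checked on simulated data.

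Groups came from the labels alone. A result for 1 gene of the lists is not reported here. Symbols were paired with 62666 of 63241 identifiers. Positions came from GENCODE release 29, which held 58228 of them. The 10 genes and the gene lists were chosen with earlier results of these data known. Named from the lists were KLB, up to 3 genes called within each cell line, the 3 tested genes most like each member spanning at least 2 on the log2 scale, and the nearest tested neighbours of FGF19, MET, EGFR and ERBB2 (at most 5, starts within 500 kb). Figures were drawn with matplotlib 3.10.9 under Python 3.11.15, with NumPy 2.4.6 and pandas 2.3.3.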

Additional observations from a re-analysis of the deposited data

Results flagged for a closer look

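In the 4 HepG2 libraries, HepG2 SR replicate 2 stood far above the others for FGFR2 and FGF19. The gap to the nearest library took 0.883 of the whole range of log2(FPKM + 1) for FGFR2 and 0.980 for FGF19, above Dixon's critical value for 4 samples. Of 20 sets of 4 libraries tested, these 2 were marked, and chance marks about 1 set in 20. Both genes were at 8.84 and 10.2 FPKM there and under 0.33 and 0.15 FPKM in the other HepG2 libraries, and this library also stood apart across all genes.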

How the results depend on the processing

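No call passed the adjusted p. Under it the genes called fell to 0 in HepG2 and over both lines. The numbers called of the 8 genes tested stayed at those reported with another pseudocount, filter, scaling, trend, cutoff or separate fits. With the replicate number as a block, 2 were called over both lines (FGFR4 and AXL), and it changed no other count of the 8. Same-numbered libraries deviated together at r = 0.125 in HepG2 and 0.796 in Huh7, and at -0.562 to -0.042 between lines, and no source ties the numbers to a culture or day, so they were not taken as pairs. In Huh7 the same-numbered libraries nevertheless resembled each other across all genes. With the expression profile as a term, 2 were called in HepG2 (EGFR and AXL), 3 in Huh7 (MET, FGFR1 and FGFR4), 1 for the difference, 4 over both lines (EGFR, MET, FGFR4 and AXL) and 2 for Huh7 versus HepG2. EGFR reversed to -1.18 in HepG2 and -0.72 over both lines under it, and FGFR1 to 0.30 in HepG2. The cause was not tested. Leaving out each library gave 0 to 2 called in HepG2, 0 to 2 in Huh7, 0 to 1 for the difference, 0 to 3 over both lines and 0 to 1 for Huh7 versus HepG2. Of named genes, EGFR then ranged from -1.18 to 2.72 in HepG2, -2.09 to 1.56 in Huh7 and -0.72 to 1.23 over both lines. FGFR1 ranged from -0.34 to 0.30, -1.86 to 0.31 and -0.94 to 0.15 likewise. ERBB3 ranged from -0.13 to 0.49 and FGFR3 from -0.15 to 0.73 in HepG2, and ERBB2 from -0.13 to 0.56 in Huh7. Libraries whose removal moved the count of the 8 were HepG2 WT replicate 1, both HepG2 SR libraries and both Huh7 WT libraries.

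All genes called moved over 1.5 times in HepG2 to 504 with a filter at 0.1 FPKM, in Huh7 to 124 in a separate fit, for the difference to 254 with that filter and 168 with none, and to 218 over both lines and 327 for Huh7 versus HepG2 at a cutoff of 1. The profile term gave 1300 in Huh7, and no count is given for the comparisons that use HepG2 SR, which then rests on replicate 1 alone. Leaving out a library gave 57 to 1749 in HepG2, 154 to 818 in Huh7, 24 to 945 for the difference, 193 to 1277 over both lines and 236 to 1735 for Huh7 versus HepG2. With 2 libraries a group and unknown depth, values near 0 FPKM in particular set no limit on expression.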
